A study of Mus musculus with 240 samples.

Results

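Clustered protocadherins are cadherin-like adhesion proteins of the neuronal surface, encoded by the alpha (Pcdha), beta (Pcdhb) and gamma (Pcdhg) gene clusters, which lie side by side on mouse chromosome 18. In the alpha and gamma clusters each gene supplies its own variable exon with its own promoter, spliced to constant exons shared by the cluster, whereas beta genes have no constant exons. Most of these promoters are chosen at random in each neuron with the help of CTCF and cohesin, so that a cell carries its own combination of isoforms, which bind like to like and serve self-avoidance and wiring; the C-type genes at the ends of the alpha and gamma clusters are instead switched on more uniformly. The genes analysed were the rows of the count table with a clustered protocadherin symbol and a mean of at least 0.5 counts scaled to library size (CPM). Of 58 such symbols among 55414 rows, 57 passed. They comprise 11 alpha genes, 22 beta genes, 12 gamma A genes, 7 gamma B genes and 5 C-type genes (Pcdhac1, Pcdhac2, Pcdhgc3, Pcdhgc4 and Pcdhgc5).

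The gene left out was Pcdha4, which had 5 counts over all libraries used. Pcdhb1 (mean 0.744 CPM) was the member nearest the threshold, followed by Pcdha8 (1.74 CPM).

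RNA was measured in naive mice of the 8 founder strains of the Collaborative Cross: C57BL/6J (B6), A/J (AJ), 129S1/SvImJ (S129), NOD/LtJ (NOD), NZO/HILtJ (NZO), WSB/EiJ (WSB), CAST/EiJ (CAST) and PWK/PhJ (PWK). The first 5 are classical laboratory strains and the last 3 are wild-derived. From each strain 3 males and 3 females, aged 8 weeks per the series' design text (the study's methods give an older age), gave punches of 3 brain regions: prelimbic cortex (PrL), core of the nucleus accumbens (NAcc) and, in the amygdala, its central nucleus (CeA). Each strain and region had 6 libraries, each from a separate mouse, except B6 NAcc, for which 5 were used. The study relates these strains to voluntary ethanol drinking, with B6 and PWK as the high-preference strains and the mean of the other 6 as Low_Average. The mice were never exposed to ethanol.

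Library totals ran from 14942820 to 33951616 counts with a median of 24456928. The punches varied in tissue content. Striatal marker genes summed to 604 to 6930 CPM in NAcc, 275 to 7467 CPM in CeA and 142 to 1751 CPM in PrL, and choroid plexus markers reached 7891 CPM in CeA. Markers of central amygdala neurons had a lower median sum in CeA (125 CPM) than in NAcc (216 CPM), and were lowest in PrL (16.5 CPM), so they set the CeA punches apart from PrL but not from NAcc. In such bulk tissue, fewer cells of a type and less RNA per cell cannot be told apart.

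The C-type genes had the highest levels per length of exon. Per kilobase of exon that overlaps no other annotated gene, the median level was 12.7 CPM for C-type genes, 3.88 CPM for gamma A, 2.82 CPM for gamma B, 1.77 CPM for beta and 1.24 CPM for alpha genes. Within the C-type genes the level per kilobase ran from 1.32 CPM for Pcdhac1 to 27.6 CPM for Pcdhgc5, whose protein is known to bind GABA-A receptors. The lowest level per kilobase of any member was that of Pcdhb1 (0.283 CPM), a beta gene whose promoter is known to lack the sequence element that most clustered protocadherin promoters share.

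Strain changed nearly every member. In the F test across the 8 strains (limma-voom, sex and sequencing tray in the model, Benjamini-Hochberg adjusted p under 0.05), 56 of 57 members passed in CeA, where 80.3% of all 16265 genes tested passed. In NAcc 54 members passed against 75.9% of all genes, and in PrL 55 passed against 83.1%. All 3 regions were passed by 53 members, against 60.5% of all genes. Strain calls were thus frequent everywhere in this series, and more so among the members, whose median strain range was also larger. The range between the highest and the lowest strain mean, averaged over the 3 regions, had a median of 1.15 on the log2 scale (2.22-fold) for the members and 0.596 (1.51-fold) for all genes. Members and all genes were not matched for level in this comparison. Of all pairwise strain contrasts of members, 14.9% in CeA, 16.1% in NAcc and 15.6% in PrL passed with at least a 2-fold difference, against 7.23%, 7.25% and 7.08% for all genes.

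**Figure D1:**
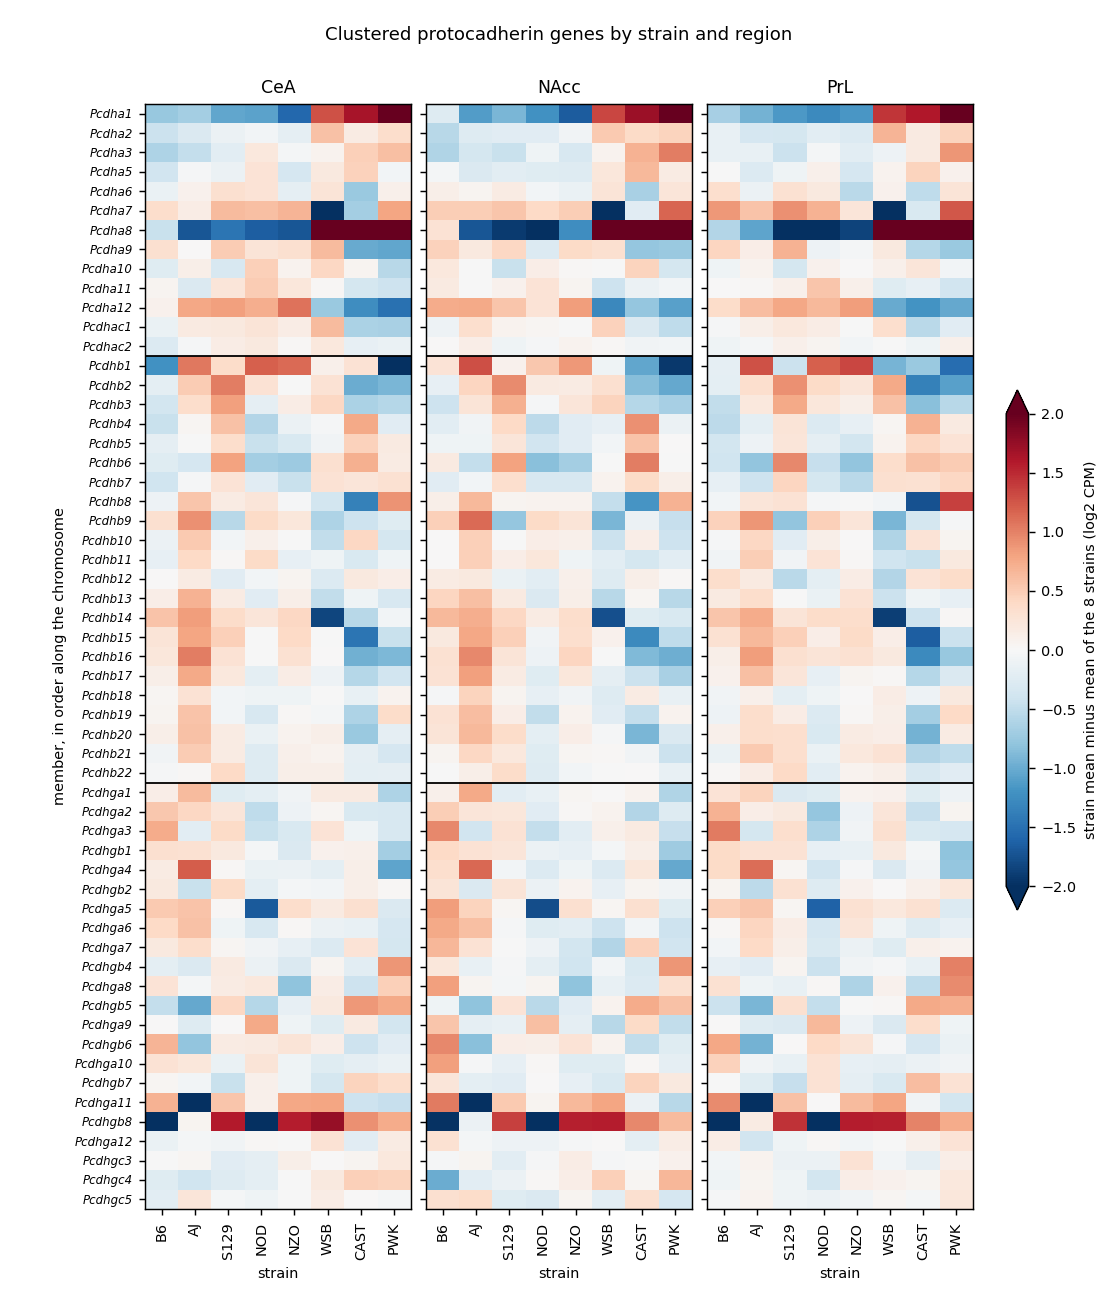
Mean log2 CPM of each strain minus the mean of the 8 strains (colour, cut at 2 in either direction) for the 57 members in chromosome order, in 3 panels for the regions; black lines part the alpha, beta and gamma clusters. Rows such as Pcdha1, Pcdha7, Pcdha8, Pcdhga11 and Pcdhgb8 carry the same strong colours in every region, whereas the C-type rows stay pale apart from Pcdhac1 and Pcdhgc4.

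The classes differed in how far strains spread. The median averaged range was 1.40 for alpha genes, 1.31 for beta, 1.29 for gamma B and 1.15 for gamma A, but 0.495 for C-type genes. The strain that was lowest was the same in all 3 regions for 24 members, and the strain that was highest was the same for 37. All genes were not counted in this way, so whether these counts are unusual was not tested. No strain was always at one end. AJ was the highest strain for 18 members in CeA, 18 in NAcc and 15 in PrL, that is 31.6%, 31.6% and 26.3% of them, whereas AJ was highest for 14.7%, 11.2% and 8.13% of all genes. B6, whose genome is the alignment reference, was the highest strain for 5, 12 and 7 members (8.77%, 21.1% and 12.3%) and for 15.3%, 17.2% and 12.5% of all genes. The part of sequence mismatch in the levels of the other strains was not tested.

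In the alpha cluster, whose single-exon variable parts are expressed mosaically among neurons, the widest ranges belonged to Pcdha8, Pcdha7 and Pcdha1. Pcdha1 was abundant in the wild-derived strains: in CeA its CPM had a median of 7.23 in PWK (6.68 to 9.44), 5.14 in CAST (4.15 to 6.33) and 4.07 in WSB (3.34 to 4.43). In the classical strains the CeA medians were 0.561 to 0.977 CPM and the highest single library, from B6, was at 1.92. No library of a wild-derived strain overlapped a classical one in any region. PWK was above every other strain in all 3 regions, by at least 0.53 on the log2 scale in CeA (largest adjusted p = 0.00382).

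Pcdha8 divided the strains in the same way. Its PrL level had medians of 7.63 CPM in PWK (5.20 to 8.34), 5.86 in WSB (3.75 to 9.76) and 4.82 in CAST (3.26 to 5.28). In the classical strains the PrL medians ran from 0.136 CPM in S129 to 0.527 CPM in B6, and the highest library was at 0.954. The groups did not overlap in CeA or NAcc either. The averaged range of 4.88 (29.4-fold) rests on low levels in the classical strains, with 1 S129 library in PrL and 1 NOD library in NAcc at 0.

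Pcdha12, near the other end of the alpha cluster, ran the opposite way. In PrL its median was 10.2 CPM in B6 (5.14 to 13.8), 10.3 in AJ, 12.1 in S129, 11.1 in NOD and 12.6 in NZO, against 3.63 in WSB, 2.86 in CAST (2.45 to 4.50) and 3.47 in PWK. The PrL libraries of the classical and wild-derived strains did not overlap, nor did those of NAcc; in CeA the lowest B6 library, at 2.77 CPM, lay below the highest WSB library, at 4.05 CPM. Across the 8 strains the profile of Pcdha12 correlated at −0.99 with that of Pcdha1, a description over 8 strain means that share their libraries. This r was the lowest of all pairs of members.

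Pcdha7 singled out WSB. Its level there had a median of 0.339 CPM in CeA (0.136 to 0.523), 0.0885 in NAcc (0.0373 to 0.313) and 0.0635 in PrL (0.0392 to 0.270). The next lowest strain, CAST, had medians of 1.34, 1.07 and 1.48 CPM, and the other strains lay between 1.69 and 4.54. Every WSB library was below every other library of its region, and WSB was lower than each other strain by at least 1.84 on the log2 scale in CeA (SE at most 0.288), 3.15 in NAcc and 3.95 in PrL. The alpha gene with the smallest range among those that passed in all regions was Pcdha5 (0.850, 1.80-fold).

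**Figure D2:**
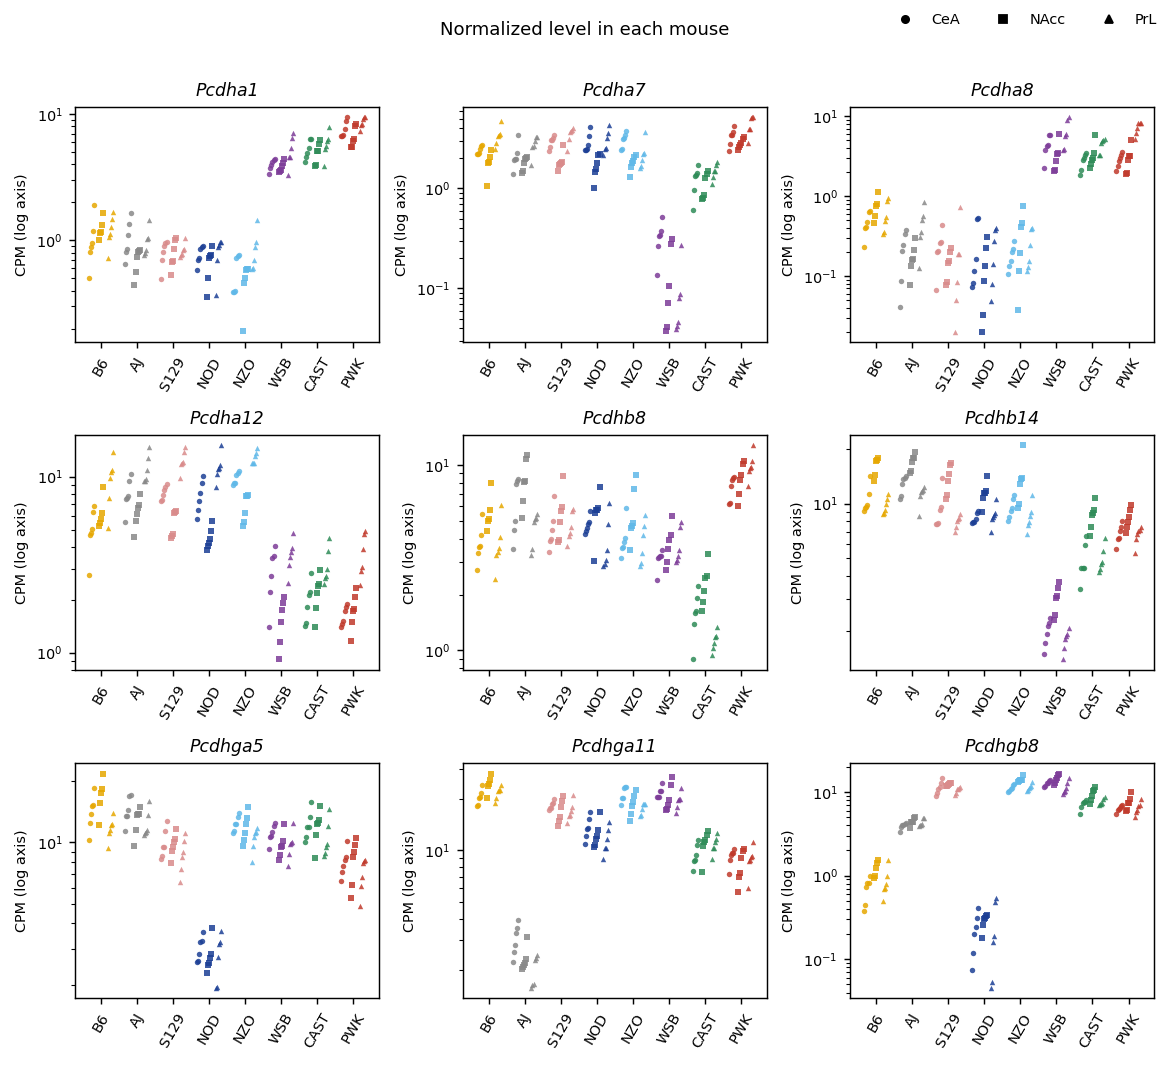
Normalized CPM (log axis) of 9 members in every mouse, by strain on the horizontal axis, with circles for CeA, squares for NAcc and triangles for PrL and points ordered by level within a group; 2 values of 0 are drawn at 0.02. The strains that stand apart are WSB, CAST and PWK for Pcdha1, Pcdha8 and Pcdha12, WSB for Pcdha7 and Pcdhb14, CAST and PWK for Pcdhb8, NOD for Pcdhga5, AJ for Pcdhga11, and NOD and B6 for Pcdhgb8.

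Among the beta genes, which act without constant exons, Pcdhb14 also marked WSB. It had a WSB median of 2.02 CPM in CeA (highest library 2.34), 3.07 in NAcc (2.31 to 3.71) and 1.85 in PrL (1.40 to 2.08). CAST followed with medians of 4.45, 8.78 and 4.74 CPM, and AJ was highest with 13.3, 17.4 and 11.7 CPM. All WSB libraries lay below all others in each region (smallest log2 difference from another strain 1.29 in CeA, largest adjusted p = 2.46e-07).

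Pcdhb8 was lowest in CAST and highest in PWK. The CAST median was 1.62 CPM in CeA (0.894 to 2.21), 2.27 in NAcc (1.63 to 3.31) and 1.14 in PrL (0.939 to 1.34), while the PWK medians were 7.95, 8.56 and 9.67 CPM. CAST was below every other strain in each region, and in CeA and PrL no CAST library overlapped another strain; in NAcc 5 of the 6 CAST libraries lay below all others. Pcdhb15 and Pcdhb20 were likewise lower in CAST than in every other strain in all 3 regions, by 1.66 and 0.84 on average in CeA on the log2 scale.

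Pcdhb1 had the widest beta range (3.44 averaged) but also the fewest reads. Its NAcc median was 2.93 CPM in AJ (1.23 to 3.86) and 0.287 CPM in PWK (0.113 to 0.655), and in PrL the PWK median was 0. The large range therefore rests on counts near the detection limit, where 3 counts at the median depth equal 0.123 CPM. At the other extreme, Pcdhb18 had an averaged range of 0.509 (1.42-fold).

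AJ had the highest beta levels. Pcdhb9, Pcdhb16 and Pcdhb17 were higher in AJ than in every other strain in all 3 regions, by 1.05, 1.18 and 0.87 on the log2 scale above the mean of the others in CeA, by 1.30, 1.11 and 0.95 in NAcc and by 1.02, 0.96 and 0.68 in PrL. For Pcdhb9 all 6 AJ libraries exceeded every other library in CeA and NAcc, and 5 did in PrL. For Pcdhb16 and Pcdhb17 the AJ libraries overlapped other strains, with 4 or 5 of 6 above all others. The AJ punches of CeA also had the highest striatal marker sum (median 4128 CPM), whereas in PrL the AJ median (158 CPM) was near the lowest strain median (156 CPM). With the log2 striatal sum as a covariate, Pcdhb9, Pcdhb16 and Pcdhb17 still passed as higher in AJ than in every other strain in all 3 regions. How much of their CeA levels goes with striatal content was not tested.

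In the gamma cluster A-type and B-type genes are interspersed. Pcdhga11 was low in AJ: its median was 3.06 CPM in CeA (2.24 to 3.92), 2.18 in NAcc (2.04 to 3.11) and 1.97 in PrL (1.58 to 2.44). The other strains had medians of 8.16 to 24.3 CPM, and no AJ library overlapped them. The difference from every other strain was at least 1.57 in CeA, 1.80 in NAcc and 2.17 in PrL on the log2 scale.

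Pcdhga4, another A-type gene, behaved the other way round in AJ. AJ had medians of 19.9 CPM in CeA (17.6 to 22.0), 20.4 in NAcc and 14.1 in PrL, above every other library, and PWK had the lowest medians, 4.17, 5.00 and 4.04 CPM. Both AJ (higher) and PWK (lower) differed from every other strain in all 3 regions for this gene.

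NOD was set apart by a pair of gamma genes. Pcdhga5 had a NOD median of 3.04 CPM in CeA (2.58 to 3.64), 2.64 in NAcc (2.28 to 3.81) and 2.96 in PrL (1.94 to 3.68), below every library of the other strains, whose medians were 7.36 to 17.5 CPM. Pcdhgb8 had the widest range of all members (5.73 averaged, 52.9-fold). Its NOD median was 0.221 CPM in CeA (0.0741 to 0.415), 0.307 in NAcc and 0.174 in PrL, and its B6 median was 0.767, 1.22 and 0.754 CPM.

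For Pcdhgb8 the remaining strains formed a ladder, with CeA medians of 3.99 CPM in AJ, 6.43 in PWK, 7.51 in CAST, 11.1 in NZO, 11.2 in S129 and 12.7 in WSB. The upper rungs NZO and WSB overlapped in each region, and S129 overlapped both in CeA and PrL. NOD was below B6 by 1.62 on the log2 scale in CeA and by more below every other strain (largest adjusted p = 9.31e-06).

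Smaller strain marks in the gamma cluster held in all 3 regions for 5 more calls. B6 was above every other strain for Pcdhga3 (0.84, 1.09 and 1.17 log2 units above the mean of the others in CeA, NAcc and PrL) and for Pcdhgb6 (0.78, 1.08 and 0.88). PWK was above every other strain for Pcdhgb4 (0.98, 1.02 and 1.15) and below for Pcdhgb1 (−0.78, −0.82 and −0.92). The remaining such call is the low PWK level of Pcdhga4 given above. Pcdhgb5, which completes the gamma B genes with the widest ranges, was lowest in AJ (median 4.41 CPM in CeA, 3.69 to 6.04) and highest in CAST (17.4 CPM, 12.4 to 19.9). The smallest gamma ranges belonged to Pcdhga12 (0.552) and Pcdhgb2 (0.723).

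Genes that differ from every other strain in the same direction, here called unique DEGs, were counted over the members. In CeA 25 members (43.9%) were a unique DEG of some strain, against 19.2% of all genes. NAcc had 26 (45.6%) against 18.1%, and PrL 30 (52.6%) against 26.4%. Over the regions there were 92 calls in 38 members, and 17 members kept a call of the same strain and direction in all 3 regions, against 8.88% of all genes. All 6 or 5 libraries of the strain lay beyond every other library in 36. S129 and NZO had no call shared by all 3 regions.

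Of the 5 C-type genes, 3 were comparatively even and 2 were not. Pcdhac2, known for the tiling of serotonergic axons, had CeA medians of 34.0 CPM in B6 (25.3 to 36.6) to 47.6 CPM in WSB (34.9 to 53.8) and passed the F test in 1 region only, with an averaged range of 0.298. Pcdhgc3, which acts on dendrite growth, had an averaged range of 0.422 and passed in all regions; in PrL its median was 53.7 CPM in CAST (41.9 to 66.8) and 71.2 CPM in NZO (58.4 to 95.5), so the ends overlapped. Pcdhgc5 passed in 1 region, with an averaged range of 0.495. Pcdhac1 had the widest C-type range (1.05): in CeA the median was 2.04 CPM in CAST (1.52 to 3.32), 2.07 in PWK and 5.48 in WSB (3.53 to 6.28).

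Pcdhgc4, which cortical interneurons need to survive, passed in all 3 regions, with a strain range of 1.67 in NAcc, 0.86 in CeA and 0.57 in PrL on the log2 scale. Its NAcc median was 12.0 CPM in B6 (8.44 to 19.4) and 39.0 CPM in PWK (22.7 to 63.1), in CeA the strain medians ran from 18.4 CPM in AJ (11.1 to 21.9) to 33.1 CPM in PWK (17.5 to 46.9), and in PrL they lay between 13.2 CPM in NOD and 19.6 CPM in NZO. B6 was below Low_Average in NAcc by 1.06 (SE 0.238, adjusted p = 0.000518) on the log2 scale. B6 also had the highest striatal marker sum in NAcc (median 5655 CPM, against 2354 CPM in NOD); with the log2 striatal sum as a covariate the difference was −0.70 (SE 0.141, adjusted p = 0.000134).

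Class sums are given as a description, since a sum over many genes tends to spread less than its single genes. The sum over all members was highest in AJ in CeA (733 ± 60.7 CPM, SD, n = 6) and lowest in NOD (613 ± 42.6 CPM), a ratio of 1.20, and the ratio was 1.33 in NAcc and 1.17 in PrL. The C-type sum varied by 1.21 in CeA, 1.28 in NAcc and 1.21 in PrL, and the alpha sum by 1.38, 1.48 and 1.32. The beta sum was highest in AJ in each region (215 ± 34.5 CPM in CeA, against 129 ± 13.1 CPM in CAST), with ratios of 1.67, 1.70 and 1.56. The gamma A sum was highest in B6 in each region, with ratios of 1.49, 1.97 and 1.43, and the gamma B sum was lowest in AJ, with ratios of 1.61, 1.59 and 1.61. A sum is led by its most abundant genes, and these class sums were not tested.

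**Figure D3:**
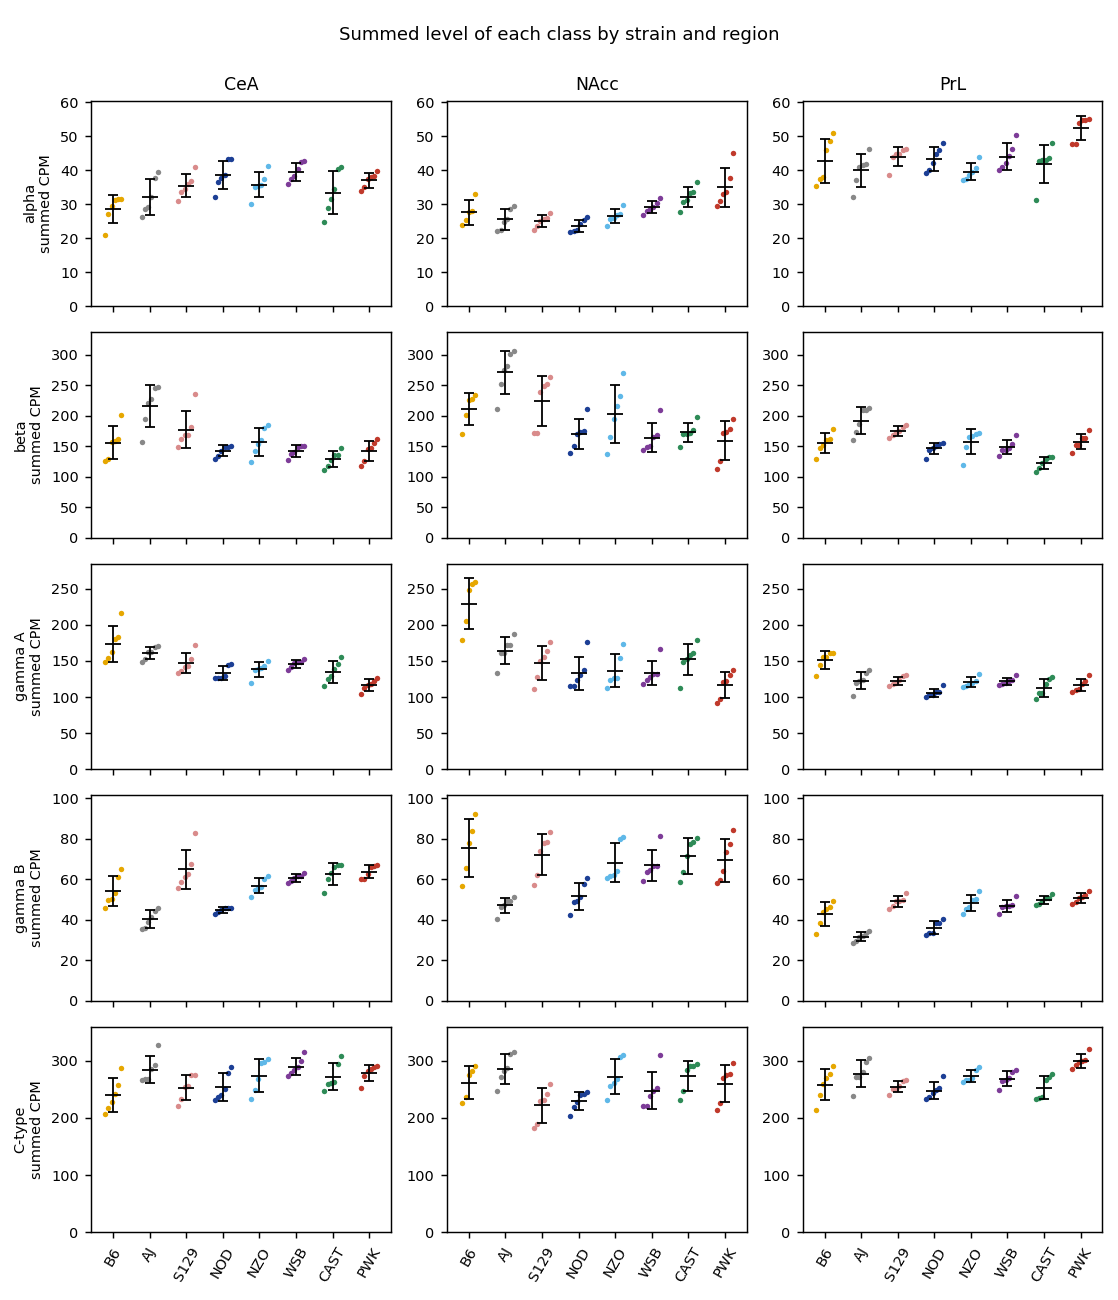
Summed CPM of each class (rows) by strain in the 3 regions (columns), with a point for each mouse, ordered by level within a group, and bars for the mean ± SD; vertical axes start at 0. AJ is highest for beta and lowest for gamma B, and B6 is highest for gamma A, reaching a mean of 229 CPM in NAcc against 116 CPM in PWK, whereas the C-type sums of all strains have means between 222 and 299 CPM.

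Neighbours in the gene order tended to have like strain profiles. Over the 8 strain means, each averaged over the regions, the median Pearson r was 0.49 for the 54 pairs of adjacent members, 0.34 for the 99 pairs 2 or 3 genes apart, 0.014 for the 387 pairs further apart in the same cluster and −0.034 for the 1056 pairs in different clusters. In the beta cluster the 21 adjacent pairs had a median r of 0.73, with 0.95 for Pcdhb2 and Pcdhb3 and for Pcdhb16 and Pcdhb17. The alpha and gamma clusters had adjacent medians of 0.28 and 0.30. Not every neighbour matched: Pcdha8 had r = −0.58 with Pcdha9 and −0.53 with Pcdha7. These r are descriptions, since all pairs share the same libraries and strains, and any split of reads between near-identical exons of neighbours was not tested.

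**Figure D4:**
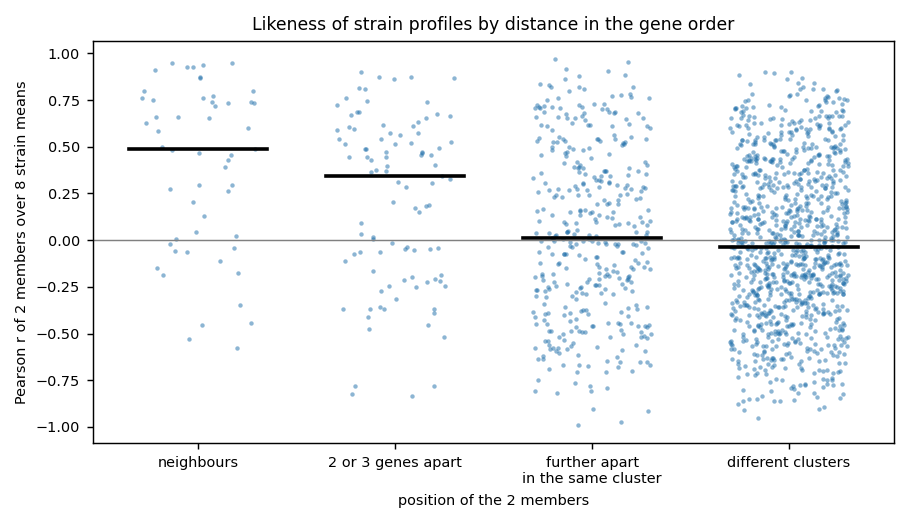
Pearson r between the strain profiles of each pair of members over the 8 strain means (vertical axis), by their distance in the gene order (horizontal axis), with a point for each pair, spread sideways at random, and a bar at the median. The median falls from 0.49 for neighbours to about 0 for pairs further apart, and single pairs of every kind spread widely.

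Against Low_Average, the comparison that bears on high ethanol preference, B6 and PWK were each tested on their own. In B6 the gamma A genes stood out: 7 of 12 were higher in CeA, 10 in NAcc and 8 in PrL, and 0 were lower. Over all members B6 was higher for 11 and lower for 12 in CeA, against 19.9% and 21.1% of all genes. It was higher for 18 and lower for 6 in NAcc (16.6% and 15% of all genes), and higher for 16 and lower for 7 in PrL (17.9% and 18.8%).

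In all 3 regions B6 was higher for 10 members, against 5.83% of all genes, and 6 of the 10 were gamma A genes. Pcdhga11 was higher by 0.74 (SE 0.065) in CeA, 1.12 in NAcc and 1.03 in PrL on the log2 scale, Pcdhga3 by 0.80, 1.03 and 1.14, and Pcdhga5 by 0.55, 0.92 and 0.50. Low_Average holds the low AJ level of Pcdhga11 and the low NOD level of Pcdhga5. B6 was lower in all 3 regions for Pcdhgb8 (−2.77, −2.20 and −2.42), Pcdhb2 and Pcdhb3, that is 3 members against 5.13% of all genes. In NAcc, where the B6 punches had the highest striatal marker sums, 17 members were higher and 8 lower with that sum as a covariate, and the gamma A count was again 10. Without 20 libraries with high marker sums of adjoining tissue, 7 of them from B6, the members lower in B6 numbered 5 in CeA and 3 in NAcc.

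PWK was higher than Low_Average for 16 members and lower for 25 in CeA, against 19.7% of all genes in either direction. It was higher for 13 and lower for 22 in NAcc (20.1% and 19% of all genes), and higher for 22 and lower for 14 in PrL (24.3% and 22.6%). In all 3 regions 12 members were higher and 12 lower, against 11.4% and 11.5% of all genes. The largest differences upward were those of Pcdha8 (2.43, 2.71 and 3.37 in CeA, NAcc and PrL) and Pcdha1 (2.43, 2.43 and 2.44), and Pcdhb8 in PrL (1.57) and Pcdhgb4 (0.98, 1.07 and 1.14) were also higher. Among those lower were the rarely counted Pcdhb1 (−3.66, SE 0.54, in CeA), Pcdha12 (−1.73 in CeA) and Pcdhga4 (−1.20 in CeA).

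Since both contrasts use the same 6 low-preference strains, their values are set side by side. Pcdha7 was higher in B6 by 0.53, 0.78 and 1.20 and in PWK by 0.98, 1.43 and 1.58 in CeA, NAcc and PrL; the average they are set against holds the near-absent level of WSB, and the B6 median lay within the range of the AJ, S129, NOD and NZO medians in each region. Pcdhga8 was higher in B6 by 0.38, 1.01 and 0.52 and in PWK by 0.58, 0.53 and 1.14. For this gene Low_Average holds the level of NZO, the lowest strain in each region. Pcdhb2 was lower in B6 by 0.37, 0.36 and 0.42 and in PWK by 1.08, 1.20 and 1.29. Pcdhb3 was lower in B6 by 0.52, 0.58 and 0.69 and in PWK by 0.74, 0.83 and 0.70. For both Pcdhb2 and Pcdhb3 the lowest strain in CeA and PrL was CAST, a low-preference strain, and in NAcc it was PWK. The highest strain in each region was S129, which is also part of Low_Average.

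The regions differed class by class. In one model over all libraries, PrL was higher than NAcc for 16 members and lower for 35, against 38.6% and 42.1% of all genes. Alpha genes were higher in PrL than in NAcc for 10 of 11 members, with a median log2 difference of 0.55. Beta genes were lower for 16 of 22 (median −0.36), gamma A genes for 10 of 12 (−0.36) and gamma B genes for 7 of 7 (−0.52). The median difference of all genes was −0.018.

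CeA was higher than NAcc for 13 members and lower for 31, against 31.7% and 35.9% of all genes. Here 9 of 11 alpha genes were higher (median 0.33) and 20 of 22 beta genes lower (median −0.30). CeA was higher than PrL for 27 members and lower for 18, against 35.8% and 36.4% of all genes. In that pair 10 of 12 gamma A and 6 of 7 gamma B genes were higher, and 7 of 11 alpha genes lower.

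**Figure D5:**
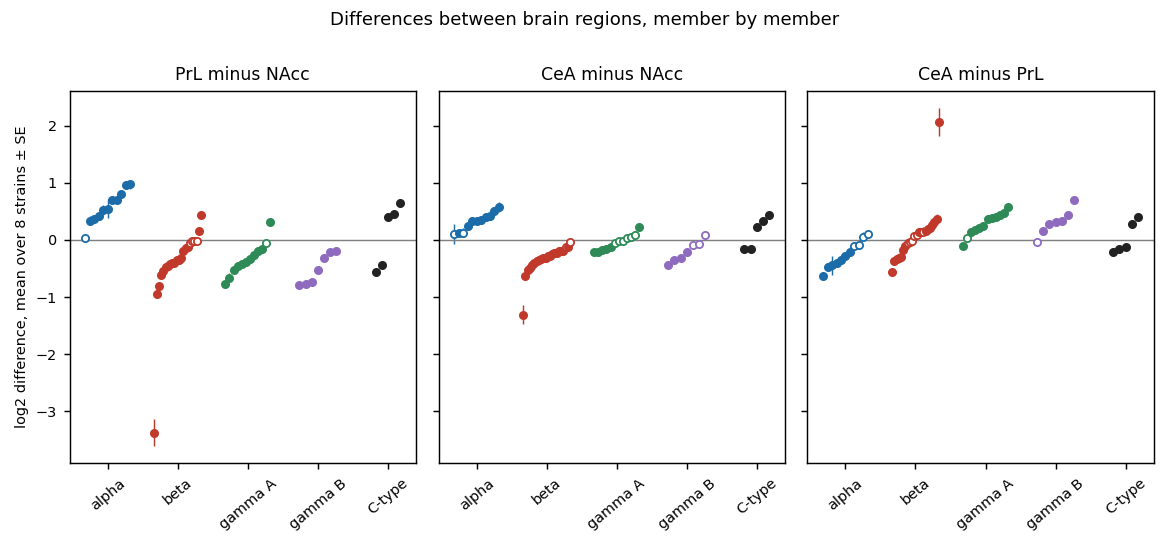
Log2 difference between regions, averaged over the 8 strains, for each member (vertical axis, ± SE) by class (horizontal axis), in a panel for each pair; filled points passed the test (adjusted p under 0.05). Alpha genes lie above 0 in PrL minus NAcc and in CeA minus NAcc, most beta genes lie below, and Pcdhb1 is far from the rest in each panel.

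Pcdhb1 had the largest region differences, −3.37 (SE 0.24) for PrL minus NAcc, −1.31 (SE 0.17) for CeA minus NAcc and 2.06 (SE 0.25) for CeA minus PrL. Next in PrL minus NAcc came Pcdhb6 (−0.94, SE 0.073) on the low side and Pcdha11 (0.97, SE 0.073) and Pcdha12 (0.97, SE 0.067) on the high side. Pcdha7 (0.58) and Pcdha11 (0.50) led the genes higher in CeA than in NAcc, and Pcdhb6 (−0.63) was the second lowest. In CeA minus PrL the lowest values were those of Pcdha12 (−0.64) and Pcdhb4 (−0.56), and Pcdhgb5 was higher by 0.70. The largest adjusted p of these differences was 2.46e-09.

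The C-type genes split by region. Pcdhac1 and Pcdhac2, of the alpha cluster, were higher in PrL than in NAcc by 0.65 and 0.46, as was Pcdhgc5 by 0.40, while Pcdhgc3 and Pcdhgc4 were lower by 0.44 and 0.56. Neuron markers shared by all neurons had median sums of 5817 CPM in PrL, 3500 CPM in CeA and 2687 CPM in NAcc, and oligodendrocyte markers of 1214, 1945 and 4233 CPM. The part of cell composition in the region differences was not tested.

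The strain pattern changed between regions for 20 of 57 members (interaction test), a share close to the 33.5% of all genes. Pcdhga7 had the smallest adjusted p (2.82e-06), with strain ranges of 0.71 in CeA, 1.24 in NAcc and 0.71 in PrL, followed by Pcdhga8 (7.88e-05) and Pcdhga12 (0.000178). With the mouse as a block the count was 22.

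Few members passed the test for sex. At an unadjusted p under 0.05 in limma's test there were 13 members in CeA, 9 in NAcc and 20 in PrL. All genes were not counted at that unadjusted cutoff, so these counts have no baseline. After adjustment 0 passed in CeA and NAcc, where edgeR also called 0. In PrL 1 member passed, against 0.123%, 0.0922% and 0.105% of all genes in CeA, NAcc and PrL. It was Pcdhgb4, lower in females by 0.29 (SE 0.062, adjusted p = 0.0313) on the log2 scale, with a female mean of 2.06 and a male mean of 2.36 over 24 mice each. For this gene the difference was −0.18 (SE 0.070, adjusted p = 0.588) in CeA and −0.036 (SE 0.063, adjusted p = 0.954) in NAcc. The PrL call was lost without a filter on low counts, with the other run of tray 2 and without the libraries with high marker sums of adjoining tissue.

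Genes that act on or with the clustered protocadherins were counted in the same F tests, and their ranges are set beside the median of 0.596 for all genes. Of 22 regulators of promoter choice and silencing, such as Ctcf, cohesin and Smchd1, 13 passed the F test in CeA, 14 in NAcc and 19 in PrL, against 80.3%, 75.9% and 83.1% of all genes, with a median averaged range of 0.254 (1.19-fold). The widest among the 11 that passed in every region were Rest, a repressor of neuronal genes (0.70), and Lrif1, a partner of Smchd1 (0.67); the range of Ctcf was 0.17. Of 26 binding and signalling partners 13 passed in all regions, against 60.5% of all genes, and the median range of the 26 was 0.361. The widest of those 13 were the receptor tyrosine kinase Ret (1.51) and the kinase gene Ptk2b (0.75). Of 11 non-clustered protocadherins tested, 4 passed in all regions, and the median range of the 11 was 0.665. The widest of those 4 were Pcdh11x (0.88) and Pcdh18 (0.87).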

How the data were processed

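Per the labels, polyA RNA was sequenced from stranded TruSeq libraries on 3 sequencing trays of 48. The authors aligned reads to GRCm39 with STAR 2.7.3a, allowing at most 3 mismatches per 100 bp read, and deposited whole-number read counts per gene (Ensembl 105) for 240 library runs, as trays 2 and 3 were sequenced again. For tray 2 the original run was used and for tray 3 the repeat, following the columns of the deposited log2 table. The deposited log2 values of 14785 genes, made with edgeR 3.38.1 and limma 3.52.2 according to the submitters' processing notes, were used to choose the libraries, 1 fewer than 144, and were recomputed here from the counts to within 5e-06. STAR's gene counts leave out reads that overlap several genes, so reads of the constant exons are not counted. Pcdha4 was nearly uncounted. In GENCODE M21 another gene shares most of its exon, but 494 exon bases lie in no other gene. The cause of its low count was not tested. Reads of near-identical members may be misassigned. Exon lengths come from GENCODE M21 on GRCm38, matched by gene ID for 57 members; no coordinates are given, since the files use GRCm39.

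Counts were analysed with limma 3.58.1 (voom, 0.5 counts added) and edgeR 4.0.16 TMM factors in R 4.3.3, on 16265 genes with a mean of at least 0.5 CPM, one model per region (strain, sex, tray) and another over all libraries (strain by region, sex, tray). Levels are TMM-normalized CPM and carry counting error at this depth. F tests, the 28 pairwise contrasts together, Low_Average contrasts, region pairs, interaction and sex were each Benjamini-Hochberg adjusted over all genes at 0.05. The median SE of a pairwise member contrast was 0.143 in CeA, 0.165 in NAcc and 0.137 in PrL. The 3 punches of a number come from the same mouse by the labels; residuals of the same mouse had a median correlation of 0.032, 0.015 and 0.0086 between regions, against 0.0026, 0.0015 and −0.00021 for other mice. Models were tested on simulated data drawn independently for each library, without effects of mouse, tray or tissue content. Alternatives were edgeR's quasi-likelihood and DESeq2's likelihood ratio tests, RLE and within-region TMM factors, other gene filters, no tray term, the second run of tray 2, all 144 libraries, 6 strains, other adjustments, single B6 NAcc libraries left out and a mouse block. Further alternatives were added after seeing the data: leaving out 20 libraries with high marker sums (choroid plexus over 1000 CPM, pallial over 100 in NAcc, striatal over 400 in PrL), leaving out WSB NAcc mouse 19, and a striatal covariate. Named genes are the 3 widest and the narrowest strain ranges per class, all C-type genes, unique DEGs of 3 regions, the leading 2 in each direction per region pair, the members called for sex, the 3 smallest interaction p and, of each list, the 2 widest genes among those that passed the strain F test in all 3 regions. The members and lists were chosen with earlier results of these data known.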

Additional observations from a re-analysis of the deposited data

Results flagged for a closer look

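In groups of 5 or 6 libraries, the class sums and the 15 members with the widest ranges of their class were searched for a library whose gap to its nearest neighbour took up most of its group's range. Of 480 groups, 35 (7.29%) held such a library. The cutoff flags about 1 in 20 groups of independent, normally distributed values. The sums and members share libraries, so that rate is only a rough guide here. The NAcc library of WSB mouse 19 was the most frequent. It was the highest of its group for the beta sum (210 CPM), gamma A sum (166 CPM, others 118 to 132), gamma B sum (81.2 CPM, others 59 to 66.4), C-type sum (309 CPM, others 220 to 251), and for Pcdha8 (5.94 CPM) and Pcdhga4 (9.41 CPM). Its striatal marker sum was 5526 CPM, against 1565 to 3259 CPM in the other WSB libraries of NAcc. The NAcc library of NOD mouse 47 was the highest of its group for the gamma A sum (177 CPM) and Pcdhga5 (3.81 CPM) and the lowest for Pcdhgc4 (10.4 CPM, others 27.6 to 32.5), with a striatal marker sum of 6180 CPM against 1932 to 3050 CPM in the other NOD libraries. The part of striatal content in these values was not tested.

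S129 mouse 46 was the highest CeA library of its group for Pcdhb14 (13.9 CPM), Pcdhga4 (12.6 CPM), Pcdhgb6 (17.1 CPM), with a striatal marker sum of 5595 CPM against 524 to 1782 CPM in the other S129 libraries. In CeA a library also stood above its group for Pcdhb8 in NZO mouse 42 (5.87 CPM), Pcdhgb5 in PWK mouse 40 (19.9 CPM), and below it for Pcdhb8 in WSB mouse 19 (2.38 CPM), Pcdhac1 in NZO mouse 34 (2.17 CPM). In NAcc a library also stood above its group for Pcdha8 in CAST mouse 4 (5.8 CPM), Pcdha7 in S129 mouse 22 (2.71 CPM), Pcdhga11 in AJ mouse 5 (3.11 CPM), Pcdhgb8 in NZO mouse 26 (16 CPM), Pcdhgb6 in CAST mouse 36 (11.9 CPM), Pcdhac1 in PWK mouse 48 (2.72 CPM), Pcdhgc4 in AJ mouse 21 (28.7 CPM), and below it for Pcdha1 in NZO mouse 34 (0.19 CPM), Pcdhb1 in B6 mouse 33 (0.844 CPM). In PrL a library also stood above its group for Pcdha8 in S129 mouse 6 (0.743 CPM), Pcdha7 in NZO mouse 26 (3.7 CPM), Pcdha7 in WSB mouse 3 (0.27 CPM), Pcdha1 in S129 mouse 30 (1.05 CPM), Pcdhb1 in B6 mouse 41 (0.496 CPM), Pcdhgc4 in PWK mouse 8 (25.8 CPM), and below it for the alpha sum in CAST mouse 36 (31.1 CPM), the alpha sum in S129 mouse 46 (38.6 CPM), Pcdhb14 in AJ mouse 21 (8.54 CPM), Pcdhgc4 in S129 mouse 46 (14.4 CPM). 

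The strain effect differed between the regions, by the interaction test of limma, for 20 members, a share close to the 33.5% of all genes. The adjusted p was 2.82e-06 for Pcdhga7, 7.88e-05 for Pcdhga8, 0.000178 for Pcdhga12, 0.000573 for Pcdha12, 0.000938 for Pcdhga6, 0.000955 for Pcdha7, 0.00115 for Pcdhb12, 0.00238 for Pcdhgc4, 0.00501 for Pcdhac2, 0.00586 for Pcdhb9, 0.00718 for Pcdha3, 0.00922 for Pcdhga9, 0.00997 for Pcdhb18, 0.0204 for Pcdhb8, 0.0215 for Pcdhb6, 0.0222 for Pcdhga2, 0.0256 for Pcdhga11, 0.0341 for Pcdhb1, 0.0362 for Pcdha9, 0.0408 for Pcdha6.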

How the results depend on the processing

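Every call on a count of members that was recomputed stayed within 1.5 times the value given, apart from 5. Without the 20 libraries with high marker sums, an alternative added after seeing the data that leaves 2 B6 libraries in NAcc, the members lower in B6 than in Low_Average numbered 5 in CeA and 3 in NAcc, and the members called for sex in PrL 0. That sex count was also 0 without a filter on low counts and with the second run of tray 2. With the replicate block by mouse the interaction count was 22, and the pairing changed no other call given above. Leaving out 1 B6 library in NAcc at a time gave 53 to 54 members called by the F test, 27 to 31 unique DEG calls, 17 to 21 members higher and 4 to 6 lower in B6, and 12 to 13 higher and 22 to 23 lower in PWK.

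For single genes, no recomputed value turned its sign. Unique DEG status in all 3 regions was lost in 9 of 198 recomputed cases: Pcdhgb1 in PWK without the filter, without the tray term and with TMM within regions, Pcdhb16 in AJ and Pcdha1 in PWK with edgeR, Pcdhga3 in B6 with the second run, and Pcdhga3, Pcdhb16 and Pcdhb17 without the 20 libraries. The F test in all regions was lost in 8 of 209 cases, those of Pcdhb18, Pcdhgb2 and Pcdhga12. The cause was not tested. Pcdhb1 and the low strains of Pcdha7, Pcdha8 and Pcdhgb8 have few counts, so their fold changes depend on the 0.5 counts added.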
